A study of Homo sapiens with 16 samples.

Results

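Chromosomes 4, 13 and 18 were, with chromosome 6, the human chromosomes on which H3K4me3 peaks had the lowest share with a BG4 peak. They were chosen by the measured share of H3K4me3 peaks with BG4 in these same lists, so their low shares are a description and no test was made of them. All peaks placed on them were taken from the 4 deposited lists, which use hg19 coordinates. That gave 1251 of 18596 H3K4me3 peaks (6.73%), with 629 on chromosome 4, 339 on chromosome 13 and 283 on chromosome 18. The BG4 lists held 113 of 3332 peaks there for siControl (3.39%), 171 of 4257 for siBAZ2A (4.02%) and 200 of 4865 for siBAZ2B (4.11%). In all, 1735 of 31050 listed peaks were members.

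The cells were A549, an established human lung carcinoma line. They received a non-targeting siRNA (siControl) or an siRNA that targets BAZ2A or BAZ2B (71 nM, 48 hours), and chromatin was profiled by CUT&Tag, in which an antibody directs a transposase to cut near its target. BG4, an antibody fragment that binds folded G-quadruplex (G4) DNA, was used in all 3 treatments, and H3K4me3 was profiled in siControl only. The 16 samples formed 4 groups of 4 replicates, but each list merges its 4 replicates, so no value here has a spread between cultures and no difference between treatments could be tested. Every interval below covers counting error over peaks only. Peak lists give no read depth, and no measure of either knockdown was used here.

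A G-quadruplex forms where several runs of guanines lie close together on one strand and stack into tetrads, and in cells most BG4 signal is known to sit at nucleosome-depleted, H3K4me3-marked promoters. BAZ2A (TIP5) is the large subunit of NoRC, a remodelling complex known for silencing rRNA genes, and BAZ2B, also a bromodomain protein, is its close relative. Chromosomes 4, 13 and 18 are long known as gene-poor and AT-rich, and chromosome 13 is acrocentric, with ribosomal RNA repeats on its short arm.

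To show what a promoter with G4 motifs on these chromosomes looks like, the protein-coding promoter windows of RefSeq (GRCh38.p14, 250 bases before to 50 after a start) were searched for the common G4 motif. It is 4 runs of at least 3 G separated by 1 to 7 bases of any kind, or the same with C for the other strand, without overlap between matches. Each window below is among those with the most matches on its chromosome, printed 5′ to 3′ along the gene with the matches in capitals. FGFR3, a fibroblast growth factor receptor gene, has 4 matches covering 95 of 300 bases at chr4:1793043-1793342 on the plus strand, one of 5 windows on chromosome 4 with as many. F10-AS2, named as an antisense gene of F10, has 6 covering 157 bases at chr13:113153937-113154236 on the minus strand. SEH1L, which encodes a nuclear pore protein, has 5 covering 116 bases at chr18:12947761-12948060 on the plus strand.
FGFR3: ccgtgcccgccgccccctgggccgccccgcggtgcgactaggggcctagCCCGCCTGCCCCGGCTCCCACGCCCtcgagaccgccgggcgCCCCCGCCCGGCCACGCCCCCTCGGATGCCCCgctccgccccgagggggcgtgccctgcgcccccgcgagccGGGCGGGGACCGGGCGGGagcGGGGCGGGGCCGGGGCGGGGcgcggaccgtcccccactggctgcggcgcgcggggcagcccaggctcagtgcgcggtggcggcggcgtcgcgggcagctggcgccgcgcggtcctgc
F10-AS2: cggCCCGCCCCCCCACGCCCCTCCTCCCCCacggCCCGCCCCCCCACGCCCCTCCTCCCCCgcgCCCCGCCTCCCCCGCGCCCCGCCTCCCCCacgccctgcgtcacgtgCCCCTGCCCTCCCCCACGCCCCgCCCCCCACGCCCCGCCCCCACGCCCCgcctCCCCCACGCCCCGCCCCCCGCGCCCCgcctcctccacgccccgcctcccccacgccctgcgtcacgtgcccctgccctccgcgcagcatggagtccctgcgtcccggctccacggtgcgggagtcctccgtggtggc
SEH1L: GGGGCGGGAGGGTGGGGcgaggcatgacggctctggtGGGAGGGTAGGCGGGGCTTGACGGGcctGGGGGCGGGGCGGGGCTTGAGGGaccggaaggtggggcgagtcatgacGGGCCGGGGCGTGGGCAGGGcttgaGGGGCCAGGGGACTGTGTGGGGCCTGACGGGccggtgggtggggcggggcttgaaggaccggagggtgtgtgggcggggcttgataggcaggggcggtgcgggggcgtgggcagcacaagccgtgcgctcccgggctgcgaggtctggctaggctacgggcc
The runs of capitals are C-rich in F10-AS2, G-rich in SEH1L and of both kinds in FGFR3. A match describes the letters only: these windows use another genome build than the peaks, so none was tied to a peak.

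By chromosome, such a match was found in 485 of 1766 promoter windows on chromosomes 4, 13 and 18 (27.5%, 95% Wilson interval 25.4 to 29.6), against 30.7% (30.1 to 31.4) of 20366 windows on the other chromosomes of the table and 30.5% of all. The share was 26.8% on chromosome 4, 28.1% on chromosome 13 and 28.5% on chromosome 18, which ranked 3rd, 6th and 8th from the lowest of 22 chromosomes. The 22 include X and lack chromosome 8, for which no windows were counted. The windows came from 1190 genes on chromosomes 4, 13 and 18 and from 14622 genes on the others. The intervals treat windows of the same gene as independent, so they are likely too narrow. Counting only the first window of each gene, the share was 28.5% against 30.6%. No interval was computed for these values, and whether the shares differ was not tested. Over all windows, median GC content was 61.7% against 62.3%. Across the table, chromosome 6 had the lowest motif share (26.5%), chromosome 19 the next to highest (35.0%) and chromosome 22 the highest (39.6%). Their siControl BG4 shares, measured as described next, were 7.32%, 25.8% and 13.3%. The part of motif content in the BG4 shares was not tested.

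In siControl, 99 of the 1251 H3K4me3 peaks on chromosomes 4, 13 and 18 overlapped a BG4 peak by at least 1 base (7.91%, 6.54 to 9.54), against 16.6% (16.1 to 17.2) of all other H3K4me3 peaks and 16.0% of the whole list. With the siBAZ2A list the count was 159 (12.7%, 11.0 to 14.7) against 21.7% of the others and 21.1% of the whole list. With the siBAZ2B list it was 180 (14.4%, 12.6 to 16.4) against 24.0% and 23.4%. The share was therefore higher in both knockdown lists than in siControl, on these chromosomes as on the rest, and it was lower on these chromosomes in every list. With each BG4 list limited to its 3332 peaks of highest −log10 q, the length of the siControl list, the share on these chromosomes was 9.03% for siBAZ2A and 8.71% for siBAZ2B, both within the siControl interval. The 3 chromosomes were close to each other: chromosome 4 carried BG4 at 8.90%, 13.4% and 15.7% of its H3K4me3 peaks in siControl, siBAZ2A and siBAZ2B, chromosome 13 at 7.08%, 12.4% and 13.0%, and chromosome 18 at 6.71%, 11.7% and 13.1%.

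Among the 23 chromosomes, the lowest siControl shares were those of chromosomes 18, 13, 6 (7.32%) and 4, and just outside stood chromosome X at 11.2% and chromosome 3 at 12.8%. In the siBAZ2A list chromosome 6 was lowest at 10.1%, followed by 18, 13 and 4, with chromosome 22 next at 16.2%. In the siBAZ2B list chromosome 6 was again lowest at 11.0%, followed by 13, 18 and 4, with chromosome 22 next at 18.7%. Chromosome 6, which the rule does not name, thus sat inside the range of the members or below it in all 3 lists. The highest siControl shares were 25.8% on both chromosome 17 and chromosome 19.

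**Figure D1:**
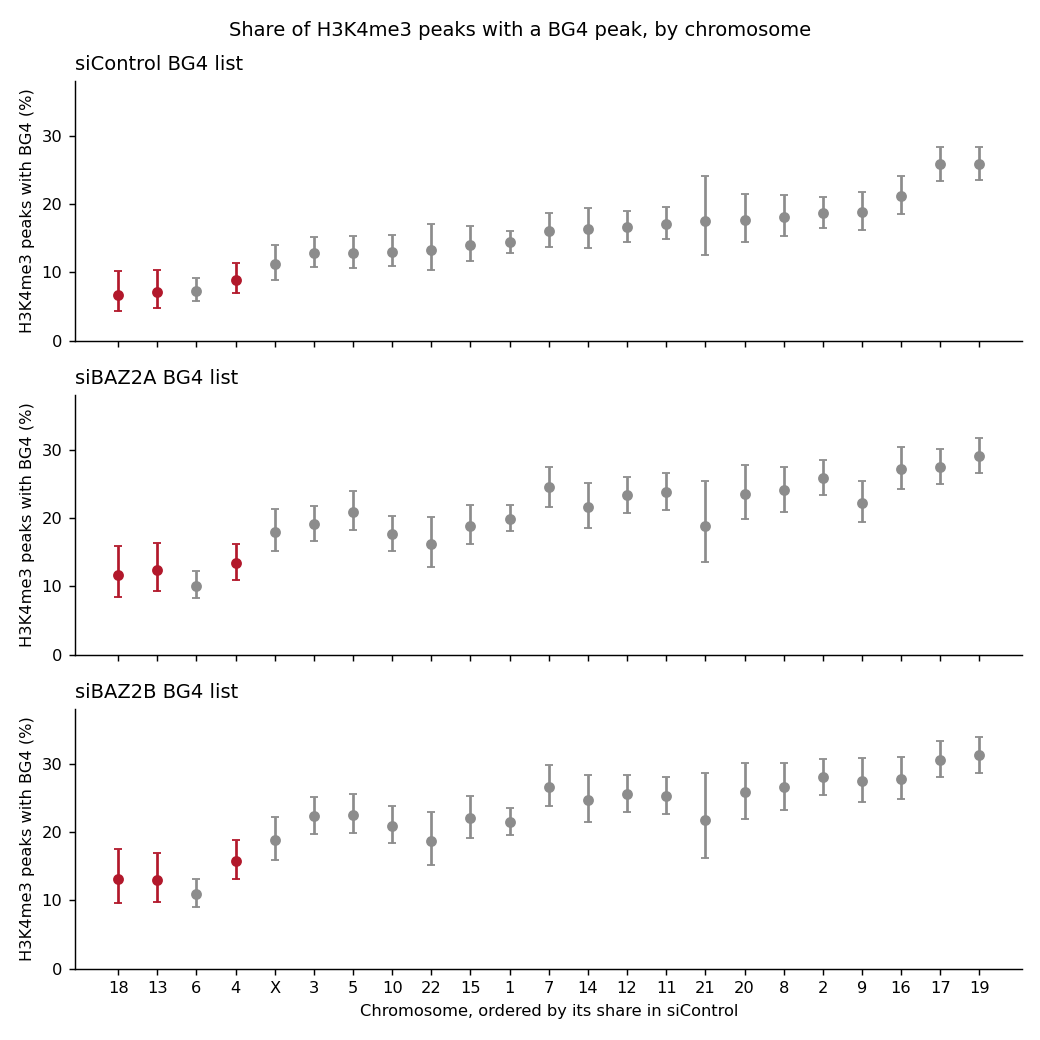
Share of H3K4me3 peaks that overlap a BG4 peak (y axis, %) on each of 23 chromosomes (x axis, ordered by the siControl share), 1 panel per BG4 list, with 95% Wilson intervals. Chromosomes 18, 13 and 4 (red) lie with chromosome 6 at the left, between 6.71% and 8.90% in siControl, and stay the lowest with it in both knockdown lists.

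BG4 was seen more often on wide H3K4me3 peaks, so the shares were compared at matched width. The median H3K4me3 peak on chromosomes 4, 13 and 18 was 1107 bp wide, and that of all others 1126 bp. Had each of 10 width classes carried BG4 as often as it did elsewhere, 203 of the 1251 peaks would have carried it in siControl. The observed 99 were 0.488 of that number (exact Poisson interval 0.397 to 0.594). For siBAZ2A, 159 observed against 265 gave 0.599 (0.509 to 0.700), and for siBAZ2B, 180 against 295 gave 0.611 (0.525 to 0.707). Matching on width therefore moved the ratio little from the unmatched 0.476 in siControl, and the deficit was present at equal width.

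The deficit was seen in each of 5 equal width classes of the H3K4me3 list. In the narrowest, 305 to 651 bp, 1.51% of member peaks carried siControl BG4 against 5.70% of the others. In the middle class, 978 to 1266 bp, it was 3.11% against 14.9%, and in the widest, 1590 bp and over, 20.3% against 31.2%. The siBAZ2A list gave 2.64%, 8.95% and 28.1% of member peaks in the same classes, and siBAZ2B gave 3.77%, 8.56% and 30.3%. The gap to the other chromosomes was proportionally smallest in the widest peaks, where siBAZ2A reached 39.0% and siBAZ2B 40.4% elsewhere.

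**Figure D2:**
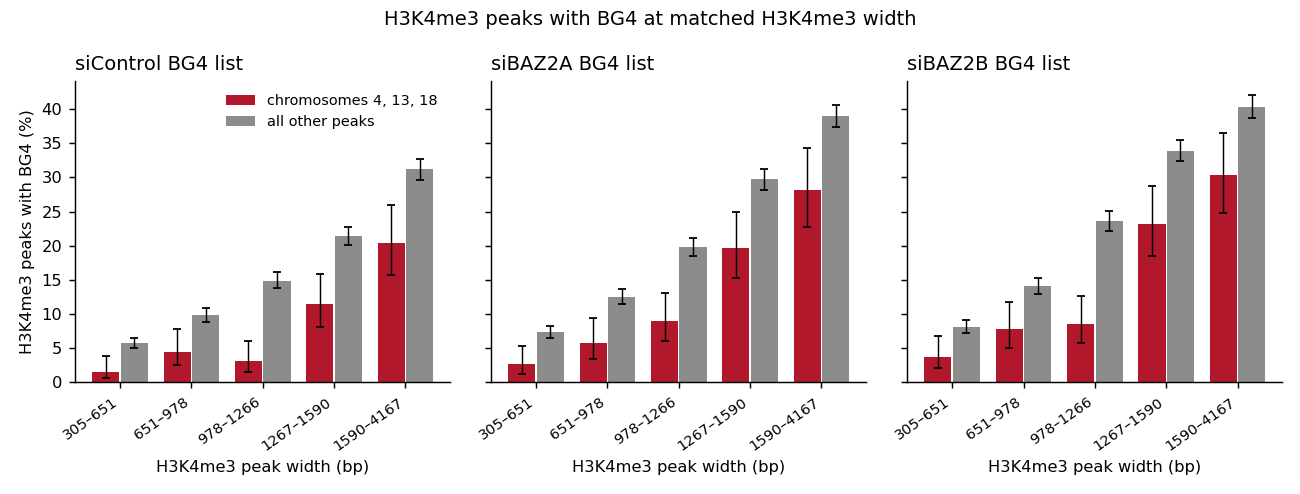
Share of H3K4me3 peaks with BG4 (y axis, %) by H3K4me3 peak width in bp (x axis, 5 equal classes of the whole list), for chromosomes 4, 13 and 18 (red) and all other peaks (grey), 1 panel per BG4 list, with 95% Wilson intervals. Red bars stand below grey bars in all 5 width classes of all 3 lists, from 1.51% against 5.70% to 20.3% against 31.2% in siControl.

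Per chromosome the width-matched ratio in siControl was 0.528 on chromosome 4, 0.458 on chromosome 13 and 0.428 on chromosome 18. It was 0.605, 0.613 and 0.567 for siBAZ2A, and 0.644, 0.577 and 0.570 for siBAZ2B. All 9 ratios were below 1, and all were higher in the knockdown lists than in siControl, although the intervals of siControl and the knockdowns overlapped. With BG4 lists cut to 3332 peaks, the ratios for the 3 chromosomes together were 0.533 (siBAZ2A) and 0.524 (siBAZ2B), beside 0.488 in siControl. H3K4me3 peaks also lay farther apart here, with a median distance to the nearest other summit of 53.8 kb against 26.1 kb. Matching on width and this distance together, an alternative added after seeing the data, gave 0.546 for siControl, 0.636 for siBAZ2A and 0.649 for siBAZ2B. The deficit at equal width was not particular to the members. By width alone, chromosome 6 had ratios of 0.454, 0.475 and 0.464 in the same order of lists, against all peaks off that chromosome.

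The low share was not even along the chromosomes. Between the first and last 10 Mb, a division chosen after seeing the data, 56 of 989 H3K4me3 peaks on chromosomes 4, 13 and 18 carried siControl BG4 (5.66%, 4.39 to 7.28), against 15.5% in the same part of the other chromosomes. In the first 10 Mb it was 28 of 128 (21.9%, 15.6 to 29.8), close to the 20.9% of the others, and in the last 10 Mb 15 of 134 (11.2%, 6.90 to 17.6) against 21.9%. Chromosome 13 had no H3K4me3 peak in its first 10 Mb and its first one started at base 19174162, so the first zone consists of chromosomes 4 and 18.

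Matched for zone and width, the siControl ratio was 0.937 (0.622 to 1.35) in the first 10 Mb, 0.568 (0.318 to 0.937) in the last and 0.379 (0.286 to 0.492) between. On chromosome 4, the first 10 Mb carried BG4 on 21 of 81 H3K4me3 peaks (25.9%) and the part between the ends on 30 of 506 (5.93%). On chromosome 18 the same zones had 7 of 47 (14.9%) and 10 of 198 (5.05%). The last 10 Mb of chromosome 18 held BG4 on 2 of 38 peaks in siControl (5.26%, 1.46 to 17.3), on 5 in siBAZ2A (13.2%) and on 8 in siBAZ2B (21.1%), too few to place it with the start or the interior.

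In the knockdown lists the interior share was 110 of 989 with siBAZ2A (11.1%, 9.31 to 13.2) and 119 of 989 with siBAZ2B (12.0%, 10.2 to 14.2), both above the siControl interval. On the other chromosomes the interior share was higher in the knockdown lists too, at 21.1% with siBAZ2A and 23.3% with siBAZ2B, beside 15.5% in siControl. Interior shares at equal list length were not computed. In the first 10 Mb the members' counts were 27 of 128 with siBAZ2A (21.1% against 26.0% on the other chromosomes) and 32 of 128 with siBAZ2B (beside 28.5% on the others), beside 28 in siControl. In the last 10 Mb they were 22 of 134 with siBAZ2A (16.4% against 25.9%) and 29 of 134 with siBAZ2B (21.6% against 28.6%), beside 15 in siControl. Matched for zone and width, the ratio in the first 10 Mb was 0.727 (0.479 to 1.06) with siBAZ2A and 0.782 (0.535 to 1.10) with siBAZ2B, below 1 by value with intervals that held 1. The interior ratio matched for zone and width was 0.547 (0.449 to 0.659) with siBAZ2A and 0.533 (0.442 to 0.638) with siBAZ2B.

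**Figure D3:**
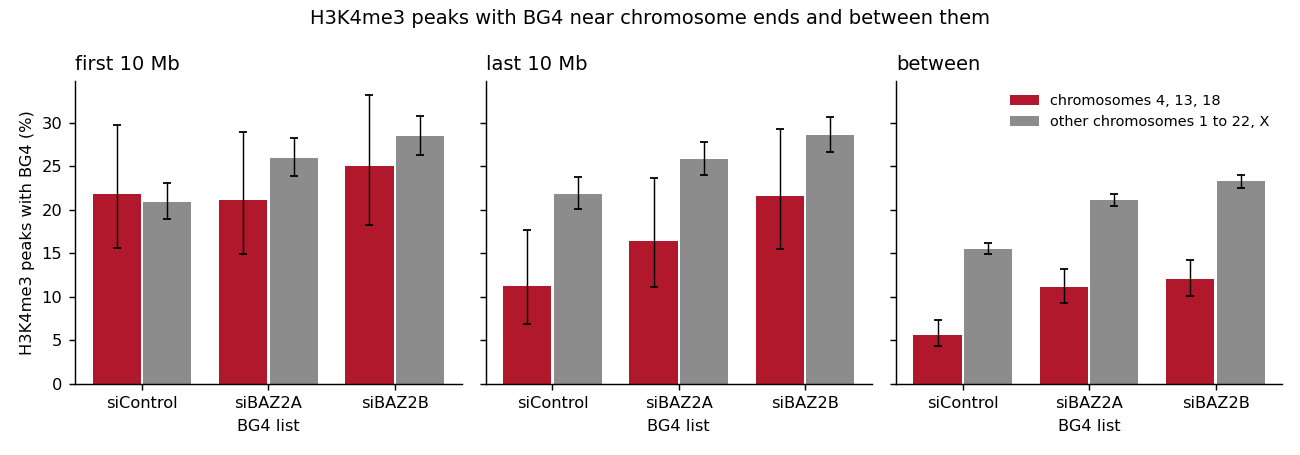
Share of H3K4me3 peaks with BG4 (y axis, %) by BG4 list (x axis) in the first 10 Mb, the last 10 Mb and between them, for chromosomes 4, 13 and 18 (red) and the other chromosomes 1 to 22 and X (grey), with 95% Wilson intervals. In siControl the red and grey bars are level in the first 10 Mb (21.9% and 20.9%) and far apart between the ends (5.66% and 15.5%).

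Long stretches held no BG4 peak at all. In siControl the longest ran for 24.3 Mb on chromosome 18, from 21166934 to 45456743, for 19.3 Mb on chromosome 4 and for 15.9 Mb on chromosome 13. H3K4me3 peaks left gaps of at most 4.23 Mb, 4.04 Mb and 7.31 Mb on the same chromosomes. On chromosome 18 the longest BG4-free stretch was 10.6 Mb with siBAZ2A and 11.0 Mb with siBAZ2B. On chromosome 4 it was 12.4 Mb and 12.0 Mb, whereas on chromosome 13 it was longer than in siControl, at 18.8 Mb and 19.1 Mb. Chromosome 18 held 20 BG4 peaks in siControl, 38 in siBAZ2A and 42 in siBAZ2B, beside 283 H3K4me3 peaks. The part of peak number in these lengths was not tested, and stretches of other chromosomes were not measured.

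Most H3K4me3 peaks here carried BG4 in no list: 1006 of 1251 (80.4%, 78.1 to 82.5), against 69.9% elsewhere. BG4 was present in all 3 lists on 66 (5.28%, 4.17 to 6.66) against 12.3%, and in both knockdowns without siControl on 45 (3.60%) against 4.78%. It was present in siControl alone on 17 peaks (1.36% against 1.49% elsewhere), in siBAZ2A alone on 44 (3.52% against 3.41%) and in siBAZ2B alone on 57 (4.56% against 5.30%), all near the shares elsewhere. Peaks with BG4 in all lists had a median H3K4me3 width of 1578 bp and those with none 1020 bp, with median H3K4me3 folds over the authors' background of 7.54 and 7.93. No H3K4me3 peak on these chromosomes overlapped more than 1 BG4 peak of a list.

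Wide H3K4me3 was no guarantee of BG4. The widest peak with BG4 in every list was 2809 bp long at chr4:57300939-57303747, with BG4 folds of 8.21 in siControl, 8.02 in siBAZ2A and 8.25 in siBAZ2B. On chromosome 18 it was chr18:48721957-48724707 (2751 bp), with 11.2, 8.19 and 7.35, and on chromosome 13 it was chr13:50698051-50700428 (2378 bp), with 5.85, 6.76 and 5.08. Peaks of similar size had none: chr4:1721814-1724681 (2868 bp), chr13:41238597-41241424 (2828 bp) and chr18:25755552-25758348 (2797 bp) had no BG4 peak in any list.

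Per H3K4me3 peak, fewer BG4 peaks were called on these chromosomes, and fewer of those called were kept. The peak names carry the running number given to each peak before the replicates were merged, so the number of peaks called per chromosome in the replicate that lent its coordinates can be bounded. In siControl that was 375 to 388 peaks, or 30.0 to 31.0 per 100 H3K4me3 peaks, against 47.7 elsewhere, and 113 of them were kept (29.1% to 30.1%) against 38.9% elsewhere. In siBAZ2A it was 353 to 356 (28.2 to 28.5 per 100 against 45.2), and 171 were kept (48.0% to 48.4% against 52.1%). In siBAZ2B it was 454 to 457 (36.3 to 36.5 per 100 against 48.4), and 200 were kept (43.8% to 44.1% against 55.6%). The siBAZ2A list was thus longer than the siControl list on these chromosomes although its lending replicate had fewer numbered peaks there, and the share found again in another replicate was higher. Taken singly, chromosome 13 kept 52.4% to 53.0% in siBAZ2A, not below the 52.1% elsewhere. Chromosome 6, outside the members, kept 27.3% to 28.0% in siControl, 37.7% to 38.3% in siBAZ2A and 38.3% to 39.6% in siBAZ2B.

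H3K4me3 peaks were nearly all kept, 94.0% to 94.1% on these chromosomes and 92.2% elsewhere, but unevenly. The share was 88.8% to 89.0% on chromosome 4, 99.7% on chromosome 13 and 100.0% on chromosome 18, and all chromosomes numbered 10 to 19 were at 98.5% or more while the others were at 84.6% to 94.5%. If H3K4me3 peaks were dropped unevenly in the merge, the number that the BG4 shares are taken over is affected. Against the 92.2% elsewhere, the kept share was lower on chromosome 4 and higher on chromosomes 13 and 18. The part of this unevenness in the shares was not tested.

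**Figure D4:**
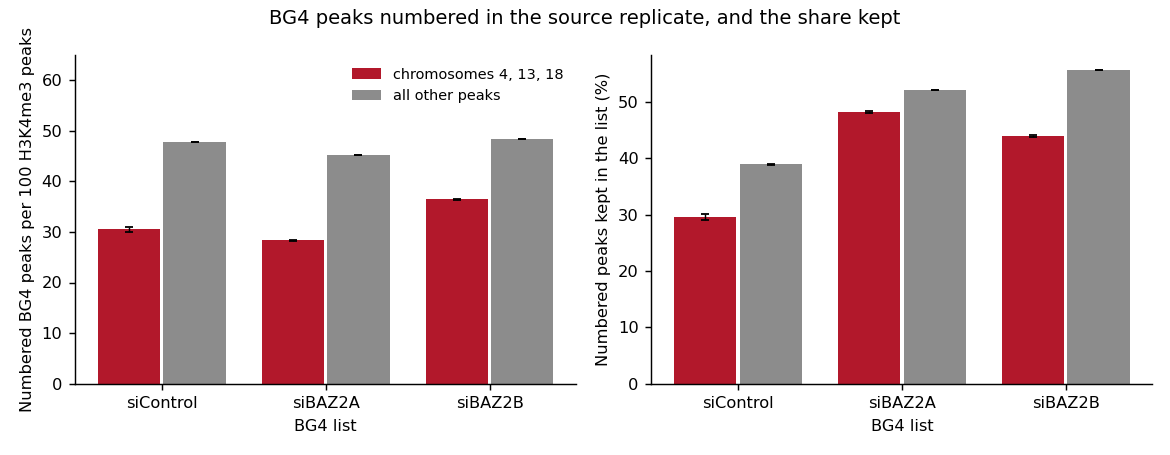
BG4 peaks numbered in the replicate that lent its coordinates, per 100 H3K4me3 peaks (left, y axis), and the percentage of them kept in the merged list (right, y axis), by BG4 list (x axis), for chromosomes 4, 13 and 18 (red) and all other peaks (grey). Bars show the midpoint of the least and most peaks the numbering allows and lines show those bounds; red stands below grey in all 3 lists on both axes, with 28.2 to 36.5 against 45.2 to 48.4 per 100.

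A knockdown peak was called gained where no siControl BG4 peak overlapped it, and a siControl peak lost where no knockdown peak overlapped it. Absence from a merged list is not absence from every replicate. In the siControl replicate that lent its coordinates, 375 to 388 peaks were numbered on chromosomes 4, 13 and 18. Of these, 113 were kept (29.1% to 30.1%, against 38.9% elsewhere). How many gained places had a peak in a single siControl replicate could not be seen. In siBAZ2A, 94 of 171 peaks on chromosomes 4, 13 and 18 were gained (55.0%, 47.5 to 62.2), against 39.3% of all other siBAZ2A peaks and 39.9% of the whole list. In siBAZ2B, 114 of 200 were gained (57.0%, 50.1 to 63.7), against 43.4% and 44.0%. Of the 113 siControl peaks, 37 were lost in siBAZ2A (32.7%, 24.8 to 41.8), against 23.1% of the others and 23.4% of the whole list, and 27 were lost in siBAZ2B (23.9%, 17.0 to 32.5), against 18.5% and 18.6%. Gained and lost shares were therefore both higher here than elsewhere by value, but for loss in siBAZ2B the members' interval held the share of the others. With peaks of −log10 q of at least 5, that share was 19.5% against 21.0% elsewhere, the opposite order. Both knockdowns are compared with the same siControl list. The members were chosen by low BG4 shares in these lists, and gained and lost peaks are defined by absence from a list among them. The gained and lost shares are therefore a description, as the low shares are.

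These counts depend on the lists' lengths. At the equal length of 3332 peaks, gained and lost peaks on these chromosomes numbered 56 and 47 for siBAZ2A and 52 and 43 for siBAZ2B. The gained share was then 45.9% against 30.7% elsewhere for siBAZ2A and 42.6% against 31.5% for siBAZ2B, and the lost share 41.6% against 30.9% and 38.1% against 31.6%.

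By chromosome, the gained share in siBAZ2A was 49.4% on chromosome 4, 61.4% on chromosome 13 and 60.5% on chromosome 18, and in siBAZ2B 53.6%, 56.3% and 66.7%. The number of listed peaks relative to siControl was highest on chromosome 18, where 20 siControl peaks stood beside 38 in siBAZ2A and 42 in siBAZ2B. It was 65, 89 and 110 on chromosome 4, and 28, 44 and 48 on chromosome 13. For all 3 chromosomes together the siBAZ2A list was 1.51 times and the siBAZ2B list 1.77 times as long as the siControl list, against 1.27 and 1.45 times elsewhere. The value elsewhere pools unlike chromosomes: the counts in the same order were 71, 112 and 120 on chromosome X, and 79, 100 and 113 on chromosome 6. On chromosomes 4, 13 and 18 the gained share was higher between the ends, at 63.2% of 114 siBAZ2A peaks and 63.8% of 127 siBAZ2B peaks, than in both ends together, at 38.6% of 57 and 45.2% of 73. On the other chromosomes the interior shares were 41.7% and 45.9%, and those of the ends 32.5% and 36.5%. The zones were chosen after seeing the data, and the members' siControl BG4 share was lowest between the ends (5.66%). The gained shares by zone use the same siControl peaks, so they are not a separate observation.

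Gained peaks were the weaker and narrower ones. On these chromosomes the authors' fold over background had a median of 6.31 in gained siBAZ2A peaks and 7.44 in shared ones, with widths of 410.5 bp and 544 bp. In siBAZ2B the medians were 5.95 against 6.88 for fold and 460 bp against 620.5 bp for width. Since weak peaks had higher gained shares elsewhere too, the counts were matched on fold: gained peaks were then 1.32 times (1.07 to 1.62) the number that the other chromosomes' shares would give for siBAZ2A and 1.35 times (1.12 to 1.63) for siBAZ2B. Matching on fold and width together left 1.21 (0.980 to 1.48) and 1.27 (1.05 to 1.53). Lost peaks matched on fold were 1.45 times (1.02 to 1.99) that number for siBAZ2A and 1.32 times (0.869 to 1.92) for siBAZ2B. Matched on fold and width, they were 1.39 times (0.981 to 1.92) and 1.26 times (0.832 to 1.84), and both intervals held 1. Since the members were chosen by BG4 shares of the same lists, the matched gained and lost ratios are a description too. Their intervals are no test.

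**Figure D5:**
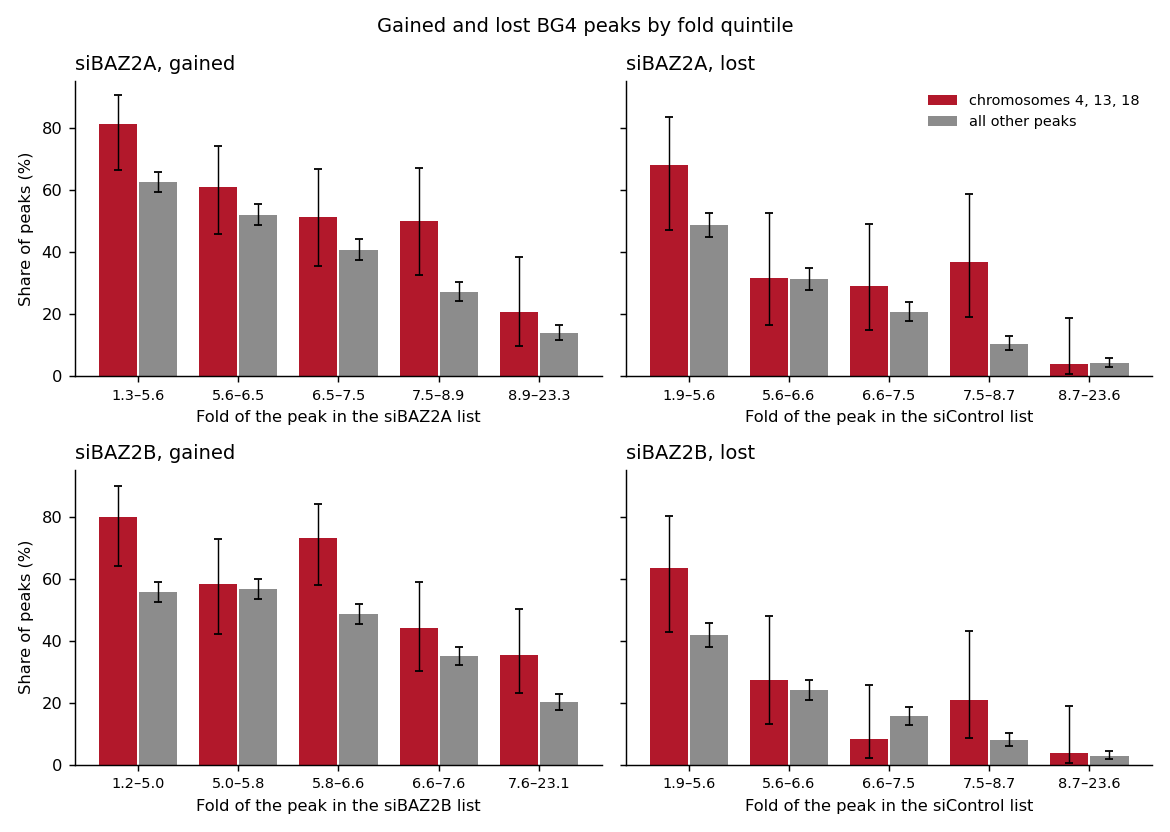
Share of BG4 peaks gained (left) or lost (right) in each knockdown (y axis, %) by 5 equal classes of the authors' fold in the list the peaks belong to (x axis), for chromosomes 4, 13 and 18 (red) and all other peaks (grey), with 95% Wilson intervals. In the weakest class 81.6% of siBAZ2A and 80.0% of siBAZ2B peaks on these chromosomes were gained, against 62.8% and 55.9% elsewhere, and the shares are lower in the strongest, at 20.7% and 35.6% against 13.9% and 20.3%.

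Nearly all gained peaks lay on H3K4me3: 89 of 94 in siBAZ2A (94.7%) and 103 of 114 in siBAZ2B (90.4%), beside 70 of 77 (90.9%) and 77 of 86 (89.5%) of the shared peaks. Elsewhere the values were 90.0% of gained and 94.7% of shared siBAZ2A peaks, and 87.7% and 92.5% for siBAZ2B. For lost peaks the values were lower, at 29 of 37 for siBAZ2A (78.4%) against 70 of 76 kept (92.1%), and 22 of 27 for siBAZ2B (81.5%) against 77 of 86 (89.5%). The same direction was seen elsewhere, with 74.7% against 94.6% for siBAZ2A and 79.1% against 92.5% for siBAZ2B.

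The knockdown lists also shared a smaller part of their peaks with each other here. A siBAZ2B peak overlapped 119 of 171 siBAZ2A peaks (69.6%, 62.3 to 76.0), against 77.0% elsewhere, and a siBAZ2A peak overlapped 118 of 200 siBAZ2B peaks (59.0%, 52.1 to 65.6), against 67.7%. Merging overlapping peaks of the 3 lists gave 275 places on these chromosomes, of which 72 were in all lists (26.2%, 21.3 to 31.7) against 37.9% elsewhere. Places in 1 list alone numbered 23 for siControl (8.36% against 6.17% elsewhere), 48 for siBAZ2A (17.5% against 11.9%) and 68 for siBAZ2B (24.7% against 19.0%).

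The 8 gained siBAZ2A peaks of highest fold ranged from 8.45 to 10.3, all on H3K4me3, and 4 of them also had a siBAZ2B peak. The strongest was chr18:12883867-12884331, 465 bp on a 1560 bp H3K4me3 peak, with fold 10.3 in siBAZ2A and 8.89 in siBAZ2B. Next came chr4:9692974-9693526 with 10.2 and 7.77. The third, chr13:49106895-49107284, had 9.28 in siBAZ2A and no siBAZ2B peak. Even these ranked only 361st, 384th and 657th by fold in the siBAZ2A list.

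The 8 gained siBAZ2B peaks of highest fold ranged from 8.41 to 9.64, and 7 lay on H3K4me3 and 6 also had a siBAZ2A peak. The strongest was chr13:44715979-44716456 with 9.64, beside 6.93 in siBAZ2A. The second, chr18:63507-63993 with 9.36, lay outside H3K4me3 and was in no other list. The peak at chr18:12883862-12884316 ranked 5th, at the place of the strongest siBAZ2A gain.

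The 8 siControl peaks of highest fold among those lost ranged from 7.59 to 9.25 for siBAZ2A and from 6.50 to 9.25 for siBAZ2B. The strongest siControl peak lost in siBAZ2A was also the strongest lost in siBAZ2B, chr13:23949359-23949935, with fold 9.25 on an 870 bp H3K4me3 peak. At chr18:45687797-45688125 the siControl fold was 8.30, and at chr4:2757766-2758161 it was 7.85, with neither place in a knockdown list. Losses in 1 knockdown alone included chr13:50018057-50018556 (8.14 in siControl, 6.76 in siBAZ2B) and chr4:103748574-103749279 (7.07 in siControl, 7.16 in siBAZ2A). Of the 8 strongest losses in siBAZ2A, 3 had a siBAZ2B peak, and of the 8 in siBAZ2B, 1 had a siBAZ2A peak.

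The strongest BG4 peaks of these chromosomes were shared by all lists. The peak at chr13:110076330-110076814 (siBAZ2A coordinates) had fold 19.0 in siControl, 22.1 in siBAZ2A and 22.4 in siBAZ2B, ranking 9th, 5th and 3rd of the whole lists, and lay outside H3K4me3. At the far end of chromosome 4, chr4:191043805-191044356 had 18.4, 15.1 and 18.5, ranking 12th, 18th and 12th. The first peak of chromosomes 4 and 18 was also in every list: in siBAZ2B coordinates, chr4:9872-10323 had 9.57, 7.92 and 11.9, outside H3K4me3, and chr18:9903-10535 had 14.7, 9.16 and 13.3. The peak at chr4:3748101-3748669 was listed in the order 16.8, 12.3 and 8.31 in siControl, siBAZ2A and siBAZ2B, and folds of separately called lists are set side by side here without a test.

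Few BG4 peaks lay outside H3K4me3, as on the other chromosomes: 14 of 113 in siControl (12.4%, 7.53 to 19.7) against 10.1% of the whole list, 12 of 171 in siBAZ2A (7.02%, 4.06 to 11.9) against 7.12%, and 20 of 200 in siBAZ2B (10.0%, 6.57 to 14.9) against 9.62%. Among the 5 strongest of each list, chr13:110076330-110076814, chr4:9872-10323 and a place near the start of chromosome 4 (chr4:725510-725990 in siControl, fold 8.89) were in all 3 lists. So was chr4:68265386-68265944, among the 5 strongest in siBAZ2B only, with folds of 6.81 in siControl, 6.23 in siBAZ2A and 7.83 in siBAZ2B. On H3K4me3, the BG4 summit lay a median of 125 bp (siControl), 127 bp (siBAZ2A) and 135.5 bp (siBAZ2B) from the H3K4me3 summit, beside 122 bp, 124 bp and 127 bp elsewhere. Where BG4 was present on these chromosomes, its distance from the H3K4me3 summit was thus close to that elsewhere.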

How the data were processed

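BG4 CUT&Tag was deposited for 3 siRNA treatments of A549 cells and H3K4me3 for siControl, 4 replicates each, merged by the authors into 1 list per group, per the labels: a peak had to recur in 2 or more replicates and took its coordinates from the one with the most peaks. The submitters' processing notes name Bowtie2 2.4.5, Picard, SAMtools 1.15.1, bedtools, MACS2 2.1.4, hg19 and dm6, while the sources used here do not say whether the Drosophila spike-in scaled anything. The deposited narrowPeak columns hold an integer score, the fold (ratio) over background, −log10 p and −log10 q as the authors' peak caller gave them, and the summit's offset from the peak start. Fold ranks and describes peaks within 1 list.

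Overlaps of at least 1 base, width classes, Wilson and exact Poisson intervals (95%) and matched expectations were computed with Python 3.11.15, pandas 2.3.3, NumPy 2.4.6 and SciPy 1.17.1, and plots with matplotlib 3.10.9. The overlap and matching code was checked on simulated data. Expected counts apply the shares of all other peaks, class by class. No test was made, since the rule used the measured shares and each list merges its replicates. The members and lists were chosen with earlier results of these data known. The 10 Mb zones and the matching on spacing were chosen after seeing the data.

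Named places were, per knockdown, the peaks of highest fold (8 gained, 8 lost, 6 shared), the 3 widest H3K4me3 peaks per chromosome with BG4 in all lists or in none, and the 5 strongest outside H3K4me3 per list, of which the text prints some. An hg19 genome and annotation were not used here. Promoter windows came from RefSeq (GRCh38.p14) and were joined by chromosome only.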

Additional observations from a re-analysis of the deposited data

How the results depend on the processing

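Of 77 alternatives over 17 results, 62 stayed within the interval or within 1.5 times the count. The others came from 2 settings. With BG4 peaks of −log10 q of at least 5, H3K4me3 peaks on chromosomes 4, 13 and 18 carried BG4 at 6.16% (siControl), 9.43% (siBAZ2A) and 10.1% (siBAZ2B), and for siBAZ2B 70 peaks were gained (50.0% against 39.4% elsewhere) and 17 lost. The siBAZ2B lost share was then 19.5% against 21.0% elsewhere, the opposite order to the lists as deposited. With each BG4 list limited to the length of the shortest, the shares were 9.03% in siBAZ2A and 8.71% in siBAZ2B, beside 7.91% in siControl, whose list is the shortest. The width-matched ratio was then 0.524 for siBAZ2B, gained peaks numbered 56 (45.9%) in siBAZ2A and 52 (42.6%) in siBAZ2B, and 43 were lost in siBAZ2B (38.1%). Shares away from the ends held with zones of 5 and 20 Mb, chosen after seeing the data. No paired analysis was possible because the 4 replicates of a group share 1 list. Leaving out a replicate was not possible either. The lists give no read depth, so how sequencing depth bears on their lengths is unknown.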
